A study of Mus musculus with 7 samples.

Results

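Platelet and megakaryocyte genes were examined in the lungs of mice with and without Gata5, which encodes a DNA-binding GATA factor. Chosen with earlier results of these data known, the group held 34 named, known genes of platelets and of megakaryocytes, their parent cells. Of these, 31 had a probe set annotated to that gene alone, and each was read at the one with the highest mean signal. The level filter left 28 of the 31 for testing, among 13285 tested genes of 18193 named in all. Gp6, P2ry12 and F2rl3 lay under the filter, and Gp1ba, Bin2 and Serpine2 had no probe set of their own here.

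Left lungs were taken at 8 weeks of age from 3 mice labelled as Gata5 knockouts (KO) and 4 labelled as wild type (WT), and total RNA from each went on 1 Affymetrix Mouse Genome 430 2.0 array. The labels list no treatment. The labels call the mice of a group biological replicates. The sources used here do not give the form of the Gata5 allele, the strain, or whether blood was flushed from the lungs. All values are log2 signals as deposited, so a difference of 1 is a doubling. Changes are KO minus WT, and a gene was called changed when its limma p, adjusted by the Benjamini-Hochberg method over all tested genes, was under 0.05.

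Platelets are cell fragments without a nucleus that circulate in the blood, stick to damaged vessel walls and start clots. They carry RNA and proteins handed down from megakaryocytes, which lie mostly in the bone marrow but also within the vessels of the lung, where they shed platelets. A platelet first touches the wall through the GPIb-V-IX receptor complex, is activated through receptors for collagen, thrombin and ADP, empties its granules, and binds fibrinogen through the integrin of Itga2b and Itgb3. RNA from whole lung therefore takes in platelets of the blood, lung megakaryocytes, and other lung cells that express some of the same genes.

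The array medians lay between 6.10 and 6.15. At one probe set the targeted gene, Gata5, read 4.98, 4.71 and 5.15 in KO replicates 1 to 3 and 5.32, 5.53, 5.85 and 5.47 in WT replicates 1 to 4. That was 0.60 lower in KO (limma adjusted p = 0.0336 over all probe sets). At the other probe set Gata5 was lower in mean (log2 change -0.26, adjusted p = 0.0993 over all probe sets). Both probe sets averaged under the level filter of 5.47, so Gata5 was not among the tested genes. KO arrays lay below WT arrays at both. The lung markers Sftpc, of type II alveolar cells, and Scgb1a1, of club cells, averaged between 14.03 and 14.54 in both groups. WT replicate 4 stood apart in Xist, at 12.72 against 6.31 to 6.48 on the other 6 arrays. The groups also differed in the controls for the ends of a transcript: the beta-actin 3′ signal exceeded the 5′ signal by 4.74 to 5.39 on KO arrays and by 3.88 to 4.31 on WT arrays.

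Several platelet and megakaryocyte genes rose in KO lungs. Of the 28 tested, 9 rose (32.1%) and 0 fell, while 19 did not pass. Among all tested genes, 15.6% were called, 5.56% as higher and 10.0% as lower. The 9 were Gp1bb, Ppbp, Fermt3, Alox12, Tubb1, Clec1b, Treml1, Nfe2 and F13a1, and their increases ran from 1.32-fold to 2.03-fold. The change was above 0 in 24 of the 28, and its median was 0.26, or 1.2-fold, against -0.00 for all tested genes. All 3 KO arrays lay above all 4 WT arrays in 10 members (35.7%), against 12.1% of all tested genes, and below them in 0, against 17.5%. In bulk lung RNA, more platelets or megakaryocytes and more RNA per cell cannot be told apart. The groups also stood apart in 3 control differences between the ends of a transcript, and with any of these as a covariate 0 members passed. Genotype and these differences cannot be told apart here.

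**Figure D1:**
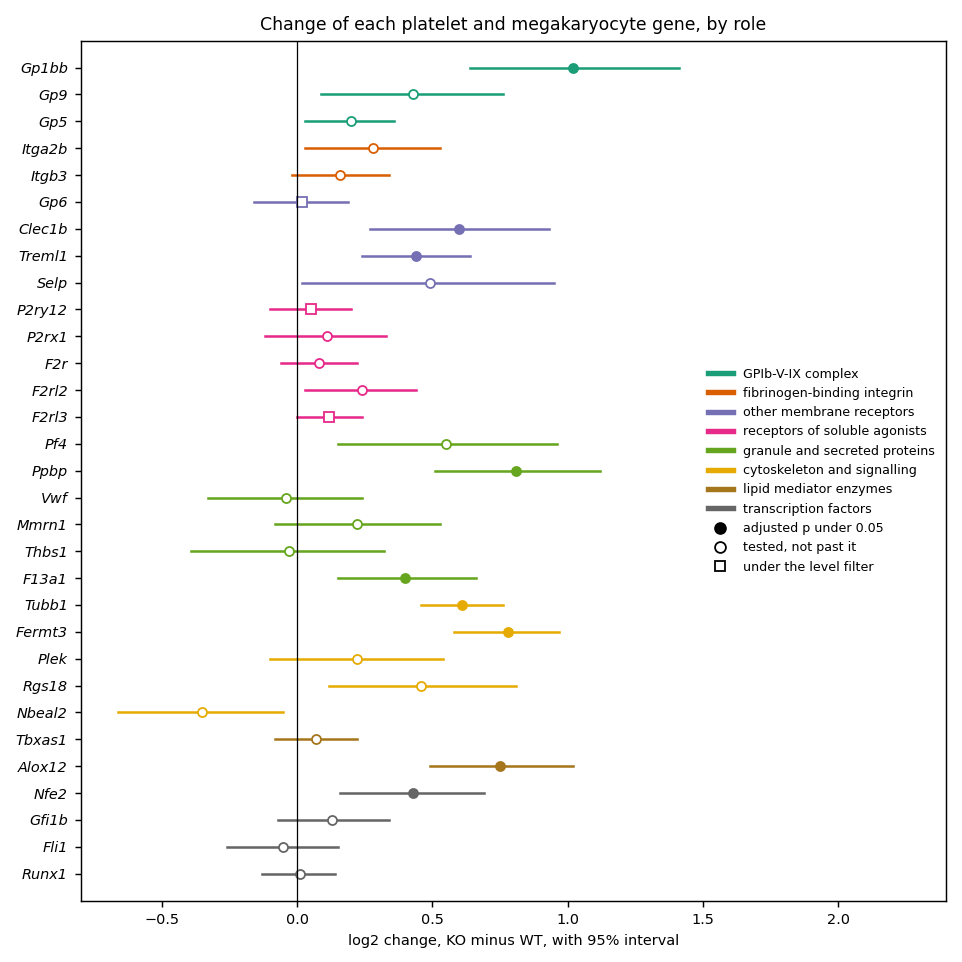
Log2 change (KO minus WT, x axis) of each of the 31 measured platelet and megakaryocyte genes (y axis), coloured by role; lines are 95% intervals, filled circles are genes with limma adjusted p under 0.05, open circles are other tested genes and squares are genes under the level filter. The 9 filled circles all lie right of 0, from 0.40 for F13a1 to 1.02 for Gp1bb, and the lowest point is Nbeal2 at -0.35.

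The genes that mark these cells most specifically were Pf4, Ppbp, Itga2b, Gp9, Gp1bb, Gp1ba, Gp5, Gp6 and Treml1. Of the 7 tested, 3 rose (42.9%, against 5.56% of all tested genes), all 7 had a change above 0, and the median change was 0.44. All KO arrays lay above all WT arrays in 4 of the 7 (57.1%, against 12.1% of all tested genes). Averaged over these 7 probe sets, the log2 signal was 8.16, 8.15 and 8.36 in KO replicates 1 to 3 and 7.57, 7.96, 7.65 and 7.57 in WT replicates 1 to 4. Each KO array was thus above each WT array, with WT replicate 2 nearest to the KO arrays. In the other 21 tested members, many of which other lung cells also express, 6 rose (28.6%) and the median change was 0.22.

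Promoters were compared because the factors that drive the megakaryocyte programme bind short, known motifs. RefSeq's table for GRCm38.p6 held 29 promoters of 27 members. In the 250 bases before the start, on both strands, a GATA motif (AGATAA or its variant AGATAG, and likewise TGATAA or its variant TGATAG) stood in 10 of the 29 (34.5%), against 26.5% of 32851 promoters in the table. An ETS motif (ACAGGAAG, ACCGGAAG or AGAGGAAG) stood in 5 (17.2%) against 8.05%, a RUNX motif (TGTGGT or TGCGGT) in 4 (13.8%) against 18.6%, and an NFE2 motif (TGAGTCA) in 2 (6.9%) against 4.46%. The genes that rose had 9 promoters in the table, 2 of them of F13a1 and 0 of Nfe2. Of these, 2 held a GATA, 2 an ETS and 1 a RUNX motif, and 0 the NFE2 motif. The 200 bases before the start are shown, 5′ to 3′ along the gene with motifs in capitals, for the 3 genes that rose, held a motif and had no other annotated gene across this stretch, and for Gp5, which held the most motifs of the tested members.
Tubb1, chr2:174450395-174450594, plus strand: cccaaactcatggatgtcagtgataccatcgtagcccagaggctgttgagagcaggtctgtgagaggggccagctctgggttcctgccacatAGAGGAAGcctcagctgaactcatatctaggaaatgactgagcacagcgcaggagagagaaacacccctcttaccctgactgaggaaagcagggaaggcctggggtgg
Fermt3, chr19:7019470-7019669, minus strand: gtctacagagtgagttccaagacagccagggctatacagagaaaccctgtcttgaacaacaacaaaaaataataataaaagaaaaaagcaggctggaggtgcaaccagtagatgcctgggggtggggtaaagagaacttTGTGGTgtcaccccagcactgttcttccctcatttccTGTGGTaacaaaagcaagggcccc
F13a1, chr13:37050245-37050444, minus strand: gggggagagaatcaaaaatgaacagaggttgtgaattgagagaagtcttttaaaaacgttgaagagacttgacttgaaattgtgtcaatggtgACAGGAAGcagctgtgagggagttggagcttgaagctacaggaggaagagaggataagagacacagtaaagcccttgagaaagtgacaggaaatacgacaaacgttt
Gp5, chr16:30310782-30310981, minus strand: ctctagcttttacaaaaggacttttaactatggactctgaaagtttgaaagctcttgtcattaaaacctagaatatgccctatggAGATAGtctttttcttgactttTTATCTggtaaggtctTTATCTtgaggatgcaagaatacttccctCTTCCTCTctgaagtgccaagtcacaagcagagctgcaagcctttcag
Tubb1 has an ETS motif 108 bases before its start, and this F13a1 promoter, 1 of its 2, has one 107 bases before. Fermt3 has RUNX motifs 61 and 24 bases before its start. Gp5 has GATA motifs at 115, 93 and 77 bases and an ETS motif at 48 bases, in part on the opposite strand. These matches are letters found in a window, and binding was not measured. Ppbp, Alox12 and Treml1 rose with 0 of these motifs in the same 200 bases, and Gp5 did not pass.

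The GPIb-V-IX complex holds platelets to von Willebrand factor on the vessel wall. Its beta subunit, Gp1bb, had the largest change of all members. Gp1bb read 7.81, 7.92 and 8.04 in KO replicates 1 to 3, and 6.83, 7.33, 6.93 and 6.51 in WT replicates 1 to 4. The KO arrays lay above every WT array, and the KO arrays were also closer to each other than the WT arrays were. The means were 7.92 ± 0.12 (SD, n = 3) and 6.90 ± 0.34 (SD, n = 4), 2.03-fold higher in KO (log2 change 1.02, 95% interval 0.64 to 1.41, limma adjusted p = 0.00921; exact permutation p = 0.0286, the smallest that 35 splits of 7 arrays can give). A second Gp1bb probe set gave 5.62 ± 0.04 in KO and 5.12 ± 0.07 in WT, a change of 0.50, again without overlap (adjusted p = 0.00455 over all probe sets). Gp1bb shares its locus with Septin5, a septin gene, and a probe set annotated to both genes changed by -0.06 (adjusted p = 0.568).

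The complex's other measured subunits were higher in mean but did not pass. Gp9 read 7.23, 7.35 and 7.66 in KO and 6.79, 7.32, 7.0 and 6.84 in WT (change 0.43, adjusted p = 0.0797). WT replicate 2 was its high wild-type array and lay within the KO range. Gp5, a thrombin-cleaved subunit at a low signal, read 6.02, 5.89 and 5.95 in KO and 5.64, 5.84, 5.84 and 5.71 in WT. Its groups did not overlap, yet the change of 0.20 did not pass (adjusted p = 0.0969).

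Neither chain of the fibrinogen-binding integrin passed. Itga2b, its alpha chain and a marker of the megakaryocyte lineage, read 7.48, 7.16 and 7.60 in KO and 7.08, 7.29, 7.07 and 7.08 in WT. KO replicate 2 lay below WT replicate 2, and the change of 0.28 did not pass (95% interval 0.03 to 0.53, adjusted p = 0.110), though it did without KO replicate 2 (log2 change 0.41, adjusted p = 0.0279). The beta chain Itgb3, which endothelial and other cells also use, read 8.11, 7.94 and 7.82 in KO and 7.81, 7.83, 7.71 and 7.83 in WT (change 0.16, adjusted p = 0.178).

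Among the other membrane receptors, 2 of 3 tested rose (66.7%, against 5.56% of all tested genes). Clec1b, the receptor CLEC-2 that binds podoplanin, read 8.37, 8.75 and 8.83 in KO and 7.97, 8.37, 7.87 and 8.00 in WT. KO replicate 1 and WT replicate 2 were level, and the increase was 1.51-fold (log2 change 0.60, adjusted p = 0.0292; exact permutation p = 0.0857). Leaving out 1 array ended this call in 5 of 7 cases, with adjusted p up to 0.0936 without KO replicate 3; the others were KO replicate 2 and WT replicates 1, 3 and 4. Clec1b overlaps the annotated span of Clec12b, and the share of its signal from that gene was not tested. Treml1, a receptor held in alpha granules and moved to the surface on activation, read 7.74, 7.65 and 7.77 in KO and 7.18, 7.45, 7.14 and 7.36 in WT. No KO array reached down to the WT range, and Treml1 was 1.35-fold higher (log2 change 0.44, adjusted p = 0.0159), though not past the threshold without KO replicate 3 (adjusted p = 0.0526).

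Selp encodes P-selectin, which platelets and endothelial cells both store. It read 7.36, 7.32 and 7.28 in KO and 6.50, 7.45, 6.80 and 6.58 in WT, a change of 0.49 that did not pass (adjusted p = 0.129). WT replicate 2 was above all KO arrays, while the other 3 WT arrays were below them, and without WT replicate 2 Selp passed. Its other 2 probe sets changed by 0.36 and 0.58, both without overlap between the groups (adjusted p = 0.0322 and 0.0213 over all probe sets). The collagen receptor Gp6, under the filter, had means of 4.37 in KO and 4.35 in WT.

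The receptors of soluble agonists gave 0 calls among the 3 tested, where 15.6% of all tested genes were called. F2rl2, the thrombin receptor PAR3 of mouse platelets, read 5.88, 5.58 and 5.74 in KO and 5.34, 5.57, 5.50 and 5.57 in WT, so the groups were apart only by 5.58 against 5.57 (change 0.24, adjusted p = 0.104). F2r, the thrombin receptor PAR1 that mouse platelets lack and endothelium carries, read 13.14, 13.12 and 13.28 in KO and 13.13, 13.12, 13.10 and 13.05 in WT (change 0.08). The ATP-gated channel P2rx1 changed by 0.11. The thrombin receptor F2rl3 and the ADP receptor P2ry12 lay under the filter, with changes of 0.12 and 0.05. The KO arrays of F2rl3, from 3.90 to 3.95, stood above its WT arrays, from 3.77 to 3.85.

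Of 6 tested granule and secreted proteins, Ppbp and F13a1 rose (33.3%, against 5.56% of all tested genes). Ppbp, a chemokine made in megakaryocytes and stored in alpha granules, read 10.78, 11.05 and 11.21 in KO and 10.22, 10.47, 10.15 and 9.97 in WT. Its groups did not overlap, and the means of 11.01 ± 0.22 (SD, n = 3) and 10.20 ± 0.21 (SD, n = 4) put it 1.75-fold higher in KO (log2 change 0.81, 95% interval 0.51 to 1.12, adjusted p = 0.00935). With the beta-actin 3′ minus middle control as a covariate, the change was 0.35 and did not pass (adjusted p = 0.5). Pf4, platelet factor 4, lies next to Ppbp on chromosome 5 with 0 coding genes between them. Pf4 read 10.04, 10.01 and 10.28 in KO and 9.22, 10.05, 9.41 and 9.55 in WT, a change of 0.55 that did not pass (95% interval 0.15 to 0.96, adjusted p = 0.0677). WT replicate 2 again lay within the KO range, and without it Pf4 passed.

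F13a1, the catalytic subunit of clot-stabilising factor XIII, which macrophages also express, read 8.79, 8.60 and 8.68 in KO and 8.31, 8.57, 8.14 and 8.12 in WT. The groups were narrowly apart, and F13a1 rose 1.32-fold (log2 change 0.40, adjusted p = 0.0453). That call held only without WT replicate 2 when arrays were left out 1 at a time, with adjusted p up to 0.12 without KO replicate 1. Among 10 tested macrophage and monocyte markers, 1 rose and 1 fell (10% each, against 5.56% and 10.0% of all tested genes). Vwf, von Willebrand factor, which endothelium makes in large amounts, read 11.77, 11.83 and 11.83 in KO and 11.84, 12.18, 11.58 and 11.82 in WT. Its change was -0.04 (95% interval -0.33 to 0.24), so a rise of the size seen in Ppbp lay outside its interval. Mmrn1, multimerin 1, changed by 0.22 and Thbs1, thrombospondin 1, by -0.03, and neither passed. A second probe set changed by 0.01 in Mmrn1 and by -0.50 in Thbs1, and neither of these passed over all probe sets.

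**Figure D2:**
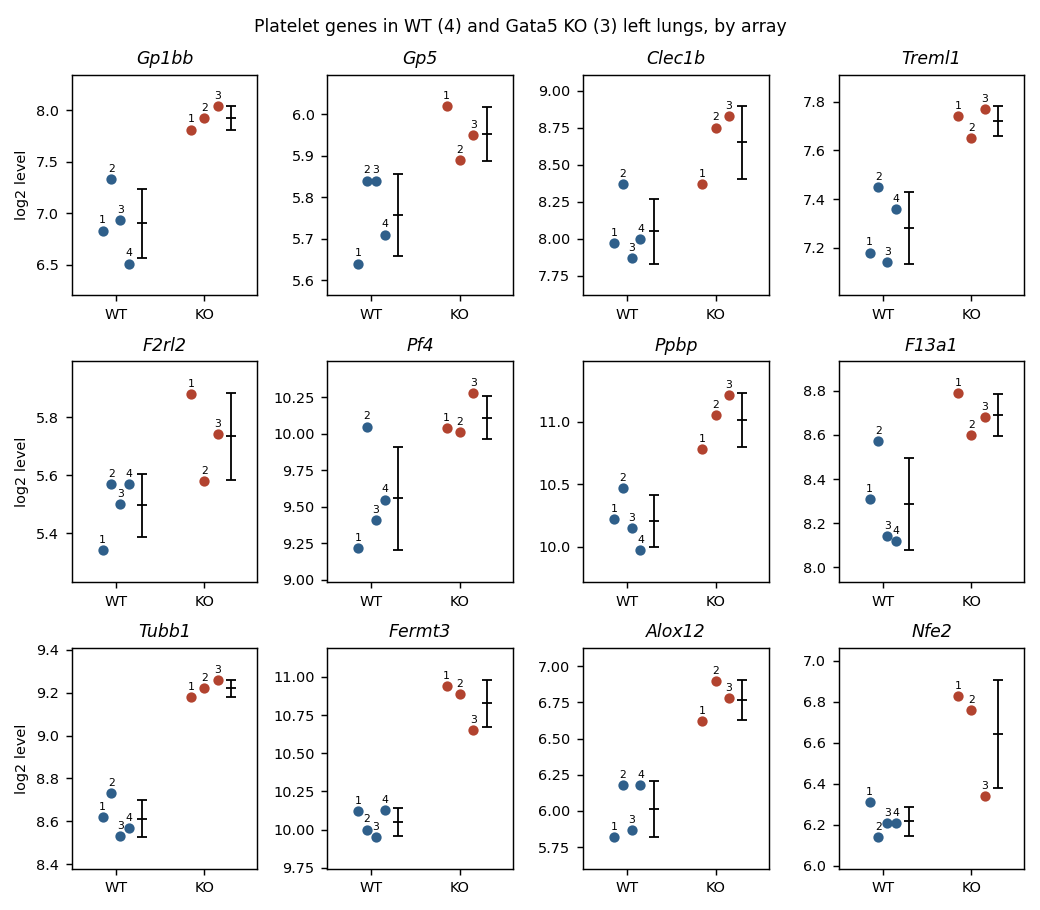
Log2 signal (y axis, a separate scale in each panel) of platelet and megakaryocyte genes on each array, in WT and KO lungs (x axis); points are single arrays with their replicate number, and bars give the mean ± SD of a group. The panels hold the 9 called genes, Gp5 and F2rl2, whose groups do not overlap, and Pf4. WT replicate 2 reaches the KO range in Pf4 (10.05 against 10.01 to 10.28), whereas the KO arrays of Tubb1 (9.18 to 9.26) stand clear of its WT arrays (8.53 to 8.73).

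Cytoskeleton and signalling genes included the most tightly separated member. Tubb1, the beta-1 tubulin of the platelet's marginal band, read 9.18, 9.22 and 9.26 in KO and 8.62, 8.73, 8.53 and 8.57 in WT. The gap between the groups exceeded the spread within either, at 9.22 ± 0.04 (SD, n = 3) against 8.61 ± 0.09 (SD, n = 4), and Tubb1 was 1.52-fold higher (log2 change 0.61, 95% interval 0.46 to 0.76, adjusted p = 0.00526). Fermt3 encodes kindlin-3, which activates integrins in platelets and leukocytes. It read 10.94, 10.89 and 10.65 in KO and 10.12, 10.00, 9.95 and 10.13 in WT, 1.71-fold higher (log2 change 0.78, adjusted p = 0.00526). Its 3 other probe sets changed by 0.19, 0.05 and -0.24 and did not pass over all probe sets, and Fermt3 was not past the threshold when its probe sets were averaged. Fermt3 also overlaps the annotated span of Trpt1.

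The other 3 tested genes of this role did not pass. Rgs18, a regulator of G-protein signalling in platelets, read 8.25, 8.06 and 8.40 in KO and 7.50, 8.13, 7.61 and 7.86 in WT (change 0.46, adjusted p = 0.0709), and its second probe set changed by 0.03. Plek, pleckstrin, a kinase substrate of platelets and leukocytes, changed by 0.22. Its other probe sets changed by 0.22 and -0.45 and did not pass over all probe sets. Nbeal2, needed to form alpha granules, had the lowest change of all members, at 7.28, 6.68 and 6.81 in KO and 7.41, 7.26, 7.22 and 7.22 in WT (change -0.35, adjusted p = 0.104). KO replicate 1 lay within the WT range; without it the change was -0.53 and passed (adjusted p = 0.0155), while a second Nbeal2 probe set changed by 0.19.

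Both lipid mediator enzymes act on arachidonic acid or its products. Alox12, the platelet-type 12-lipoxygenase, read 6.62, 6.90 and 6.78 in KO and 5.82, 6.18, 5.87 and 6.18 in WT. Its groups were apart, and the rise was 1.69-fold (log2 change 0.75, 95% interval 0.49 to 1.02, adjusted p = 0.00808). A second Alox12 probe set rose by 0.50 (adjusted p = 0.0209 over all probe sets). Tbxas1, thromboxane synthase, read 7.07, 7.10 and 7.17 in KO and 6.93, 7.12, 7.04 and 7.08 in WT, a change of 0.07 that did not pass.

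Of 4 tested transcription factors, 1 rose (25%, against 5.56% of all tested genes). Nfe2, the large subunit of a factor needed for platelet release, read 6.83, 6.76 and 6.34 in KO and 6.31, 6.14, 6.21 and 6.21 in WT. KO replicate 3 stood only just above WT replicate 1, and the increase was 1.34-fold (log2 change 0.43, adjusted p = 0.0415). Leaving out an array kept this call only without KO replicate 3, and adjusted p reached 0.11 without KO replicate 1. Fli1, an ETS factor of endothelium as well as megakaryocytes, read 9.46 on all 3 KO arrays and 9.42, 9.35, 9.72 and 9.56 in WT (change -0.05). Gfi1b, a repressor of the erythroid and megakaryocyte lines, changed by 0.13. Runx1 changed by 0.01 at the probe set used, and its 5 others by between -0.41 and 0.18, of which the one at -0.38 passed over all probe sets (adjusted p = 0.00722). Gata1, the GATA factor of these lines, changed by 0.22 and did not pass (adjusted p = 0.121).

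The wild-type lungs were not alike in these genes. WT replicate 2 was the highest of the 4 WT arrays in 20 of the 28 tested members (71.4%), against 28.4% of all tested genes. Measured from the WT mean, the median over tested members stood at 0.14 on that array, between -0.06 and -0.04 on the other 3 WT arrays, and between 0.27 and 0.34 on the KO arrays. Over the defining markers alone it stood at 0.27 on WT replicate 2 and between 0.37 and 0.67 on the KO arrays. Without WT replicate 2, 12 members were called higher: Pf4, Gp9, Rgs18 and Selp joined and Nfe2 left. The mean of 6 tested erythroid markers was also highest on that array, at 7.20. It was 6.80, 6.92 and 6.96 in KO replicates 1 to 3 and 6.73, 6.77 and 6.65 in WT replicates 1, 3 and 4. All KO arrays thus lay above those other WT arrays here too. The change was above 0 in 5 of the 6 erythroid markers, and 0 of them were called. How far red cells and platelets arrive together in the tissue was not tested.

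**Figure D3:**
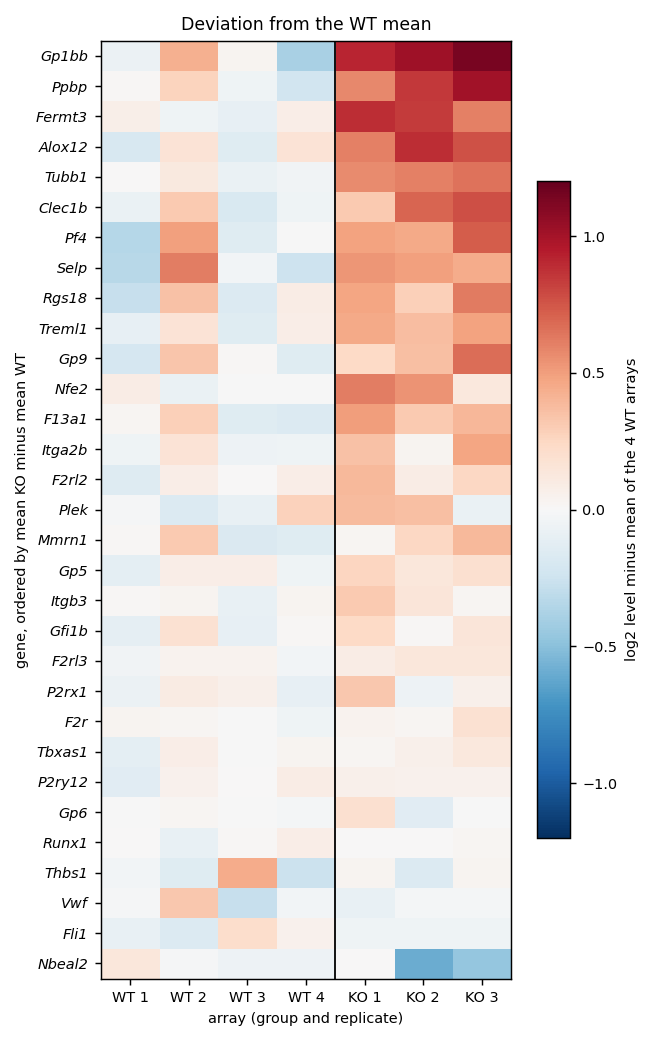
Deviation of each of the 31 measured platelet and megakaryocyte genes (y axis, ordered by change) from the mean of the 4 WT arrays, on each array (x axis); colour gives the log2 difference, red above and blue below that mean. The upper genes are red on all 3 KO arrays, and WT replicate 2 is the wild-type column with most red, with a median of 0.14 over the tested genes.

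Other platelet genes were counted in the same way. Among 42 tested genes of platelet signalling and adhesion besides the members, most of them expressed in many cell types, 0 rose and 6 fell (14.3%, near the 10.0% of all tested genes called lower), with a median change of -0.08. Orai1, a store-operated calcium channel, fell by 0.55 (adjusted p = 0.0143) and Vasp, an actin regulator, fell by 0.92 (adjusted p = 0.0163). Esam, a junction protein of platelets and endothelium, fell by 0.42, and Tln1, the integrin activator talin, fell by 0.36. The brightest genes of the list, Gnai2 and Cd151, changed by -0.12 and 0.12 and did not pass.

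Among 26 other granule and secretion genes, 3 rose (11.5%, against 5.56% of all tested genes) and 3 fell (11.5%, against 10.0%), with a median of -0.02. Its brightest genes, Srgn and Lamp1, changed by -0.07 and -0.13 and did not pass. Hps1, of lysosome-related organelles, rose by 0.49 (adjusted p = 0.0084), Vipas39, which acts in alpha-granule formation, by 0.36 (adjusted p = 0.0145), and the secretory syntaxin Stx11 by 0.55 (adjusted p = 0.0201). Tgfb1, a growth factor stored in alpha granules, fell by 0.41 (adjusted p = 0.00779). Of 24 further regulators of megakaryocytes, 0 rose and 4 fell (16.7%, against 10.0% of all tested genes), at a median of -0.04. Mafg, which pairs with the Nfe2 protein, fell by 0.50 (adjusted p = 0.01), and Cbfb, which pairs with Runx1, fell by 0.28 (adjusted p = 0.0169). Mrtfa and Cxcr4 fell by 0.74 and 0.76. Of 15 tested coagulation and fibrinolysis genes, 1 rose and 1 fell (6.67% each, near the 5.56% and 10.0% of all tested genes), while 13 did not pass. F5, factor V, rose by 0.73 (adjusted p = 0.0204). Thbd, the endothelial thrombin receptor thrombomodulin, fell by 0.55 (adjusted p = 0.0137).

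Markers of other cells were read on the same arrays, since several members are not particular to platelets. Of 16 tested endothelial markers, 0 rose and 7 fell (43.8%, against 10.0% of all tested genes called lower), with a median of -0.26. Their mean was 10.10 to 10.34 on KO arrays and 10.43 to 10.73 on WT arrays. Pecam1, which platelets also carry, fell by 1.22 (adjusted p = 0.00679), and Tie1, Nos3 and Flt1 fell by 0.83, 0.60 and 0.47. Of the brightest, Ramp2 fell by 0.23 and Calcrl changed by -0.02 without passing. The members shared with endothelium, Vwf, Selp, F2r, Fli1 and Mmrn1, were thus measured in lungs in which this list was lower, and its part in their values was not tested. Neutrophil, pan-leukocyte, erythroid, mast cell, B cell, and T and NK cell lists each gave 0 calls, against 15.6% of all tested genes. Each held 4 to 11 tested genes, too few for 0 calls to show that these cells were unchanged. Pan-leukocyte means were 9.13 to 9.86 on KO and 9.39 to 9.80 on WT arrays, and neutrophil means were 7.58 to 8.06 and 7.45 to 8.20. The B cell list had 5 tested genes, all 5 with a change above 0, and a median change of 0.35. Its means were 8.26 to 9.27 on KO and 8.09 to 8.71 on WT arrays. Fermt3, Plek and Nfe2, which leukocytes also express, did not order the KO arrays as several of the platelet receptors and chemokines did. Among KO arrays, all 3 were lowest on KO replicate 3, as was the pan-leukocyte mean, at 9.13 against 9.86 and 9.69. Gp1bb, Gp9, Ppbp, Pf4, Clec1b and Treml1 were each highest on that array. Other platelet receptors did not share this order. Selp and Itgb3 were also lowest on KO replicate 3, and Gp5, F2rl2 and P2rx1 were highest on KO replicate 1. Among KO arrays, 13 of the 28 tested members were highest on KO replicate 3 and 13 on KO replicate 1. An order of 3 arrays cannot show the part of leukocytes in the increases of Fermt3 and Nfe2, which was not tested.

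Genes that mark structural cells were read as well. In the mesothelial list 3 of 5 tested genes fell (median -0.93), in the smooth muscle list 4 of 6 (median -0.52) and in the fibroblast list 3 of 9 (median -0.32). These are 60%, 66.7% and 33.3%, against 10.0% of all tested genes called lower. The alveolar type 1, alveolar type 2, club cell and lymphatic endothelial lists, of 3 to 5 tested genes each, gave 0 calls, against 15.6% of all tested genes. Their medians lay between -0.18 and 0.06. The mean of the type 2 list was nevertheless 12.46 to 12.65 on KO arrays and 12.73 to 12.90 on WT arrays, without overlap, and 3 of its 5 tested genes had all KO arrays below all WT arrays. Of these cell type lists, only that of macrophages held a gene that rose, Csf1r, at 0.33 (adjusted p = 0.00944), beside Lyz2, which fell by 0.43 (adjusted p = 0.0287).

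**Figure D4:**
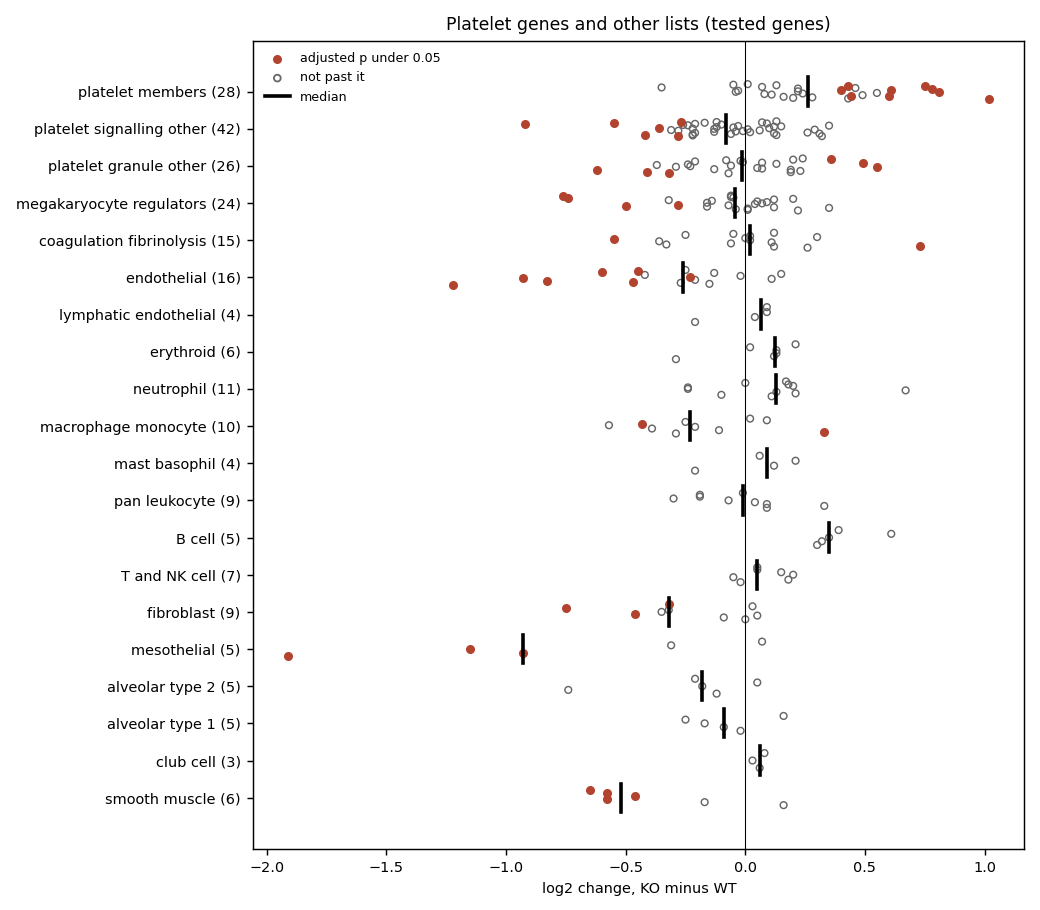
Log2 change (KO minus WT, x axis) of tested genes in the platelet and megakaryocyte group and in each other list (y axis); filled points are genes with limma adjusted p under 0.05 and black bars are medians. The platelet and megakaryocyte median lies at 0.26 and the endothelial median at -0.26.

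The number of members called depended on which arrays and covariates entered the fit. Gp1bb, Ppbp, Fermt3, Alox12 and Tubb1 passed whichever array was left out, and the count of members called higher ran from 6 to 12. With a control difference as a covariate (beta-actin 3′ minus 5′, beta-actin 3′ minus middle or Gapdh 3′ minus middle, in that order below), limma called 0 members in each fit, though 12, 7 and 9 of the 28 (42.9%, 25% and 32.1%) had unadjusted p under 0.05, against 16.6%, 13.1% and 20.5% of all tested genes. The changes of the 9 called genes all stayed above 0. With beta-actin 3′ minus middle, Gp1bb went from 1.02 to 0.61, Ppbp from 0.81 to 0.35, Clec1b from 0.60 to 0.28 and Nfe2 from 0.43 to 0.82. With beta-actin 3′ minus 5′, Treml1 went from 0.44 to 0.72, F13a1 from 0.40 to 0.64 and Nfe2 to 0.21, and with Gapdh F13a1 went to 0.70. Tubb1 stayed between 0.50 and 0.69 over the 3 fits, Fermt3 between 0.71 and 1.04 and Alox12 between 0.64 and 0.86. All 3 differences were larger on each KO array than on any WT array, so that genotype and this measure cannot be told apart here. Against WT replicates 1 and 2 alone, whose mouse numbers lie nearest those of the KO mice, 0 members passed and 8 (28.6%) had unadjusted p under 0.05, against 21% of all tested genes. Quantile normalization of the deposited values made 57.1% of all called genes higher, against 35.7% as deposited, and called 10 members higher, with Pf4 added. Median centring made that share 24.6% and cyclic loess 46.8%, with 7 and 8 members called higher.

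**Figure D5:**
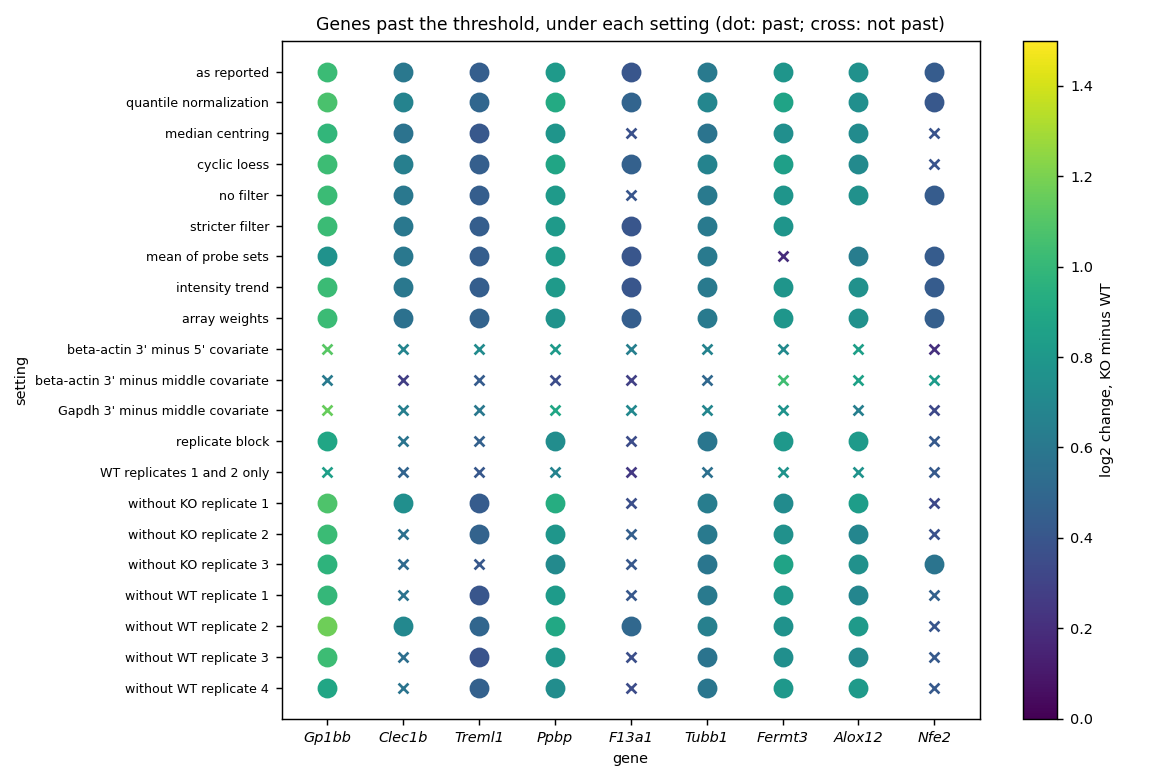
The 9 called genes (x axis) under each processing setting (y axis), coloured by log2 change (KO minus WT); a dot marks limma adjusted p under 0.05 and a cross marks a value not past it. Alox12 and Nfe2 lie under the stricter filter and have no mark there. Crosses fill the covariate rows and the row with WT replicates 1 and 2 only, whereas Tubb1 keeps its dot whichever array is left out.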

How the data were processed

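Total RNA of 7 left lungs was measured on 1 array each, and groups and replicate numbers came from the labels. The deposited table holds log2 signals of 45101 probe sets, 64 of them controls. Per the submitters' processing notes, which give neither versions nor roles, the tools were MAS5, RMA and Affymetrix Expression Console. The log base was read from the range of the values. The platform annotation gave 1 gene to 34945 probe sets, several to 932 and none to 9160; symbols were updated by gene identifier for 34741 from RefSeq's GRCm38.p6 table, which also gave promoters and neighbours.

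Each gene was read at the probe set with the highest mean. Genes at or above the 40th percentile of probe set means (5.47) were tested, 13285 in all, and 4908 lay under it. The groups were compared by limma 3.58.1 in R 4.3.3 (lmFit, then eBayes; a model of genotype alone), two-sided, with Benjamini-Hochberg adjustment over all tested genes. Other probe sets were tested in a fit over all that are not controls. Single values had an exact two-sided permutation test over 35 splits. The fit was tested on simulated data. For arrays, their number limits the precision.

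The members and lists were chosen with earlier results of these data known. Described array by array were members that were called, did not overlap between groups or were brightest in their role; of a list, at most the 4 called genes of smallest p and the 2 brightest were named, not all of them in every list, and genes outside this rule were named after their values were seen. Alternatives covered normalization, filter, probe sets, variance model, weights, covariates, pairing and arrays left out. Figures used matplotlib 3.10.9 under Python 3.11.15.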

Additional observations from a re-analysis of the deposited data

Results flagged for a closer look

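Among the 31 measured platelet and megakaryocyte genes, 2 had a wild-type array far from the other 3. Itga2b read 7.29 in WT replicate 2 against 7.07 to 7.08 in the other WT arrays, a gap of 0.955 of the group's range. Itgb3 read 7.71 in WT replicate 3 against 7.81 to 7.83, a gap of 0.833 of the range, just over Dixon's 95% critical value for 4 samples. Chance puts about 1 in 20 groups past this limit, and 31 were examined.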

How the results depend on the processing

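Over 20 alternatives, none of the 9 called members changed sign: 115 of their values stayed past the threshold and 63 did not. The genes called, 2069 as reported, came to 0 with either beta-actin covariate, 5 with the Gapdh covariate, 371 with the replicate number as a block, and 0 against WT replicates 1 and 2 alone; unadjusted p under 0.05 was reached by 2204, 1742, 2726 and 2791 genes with the beta-actin 3′ minus 5′, beta-actin 3′ minus middle and Gapdh covariates and against those 2 arrays. Members called higher came to 0 with each covariate and against WT replicates 1 and 2, and to 5 with the block (Alox12, Fermt3, Gp1bb, Ppbp and Tubb1). Leaving out 1 array gave 891 to 1951 genes, 6 to 12 members higher, 0 to 1 lower (Nbeal2, without KO replicate 1), and a member median of 0.25 to 0.34. That median was 0.40 under the stricter filter, which tested 21 members, 0.51 with the beta-actin 3′ minus 5′ covariate and 0.38 with the Gapdh covariate. The cause of these shifts was not tested. The stricter filter tested fewer members, and the fits with 1 array left out used fewer arrays.

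Same-numbered mice of the 2 groups did not deviate together (correlations of 0.00331, -0.0424 and 0.0351). Pairs with different numbers ran from -0.29, KO replicate 3 with WT replicate 4, to 0.265, KO replicate 3 with WT replicate 2. These values cannot show whether any mice were paired, and the labels name no pairing.

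Changes turned sign only in members that did not pass. Vwf came to 0.03 under quantile normalization, 0.02 under cyclic loess, 0.17 and 0.18 with the beta-actin 3′ minus 5′ and Gapdh covariates. Fli1 came to 0.03, 0.01, 0.04 and 0.08 under quantile normalization, cyclic loess, the beta-actin 3′ minus middle covariate and WT replicates 1 and 2. Runx1 came to -0.03 under centring, -0.08 under averaged probe sets, -0.00 with beta-actin 3′ minus 5′ and -0.03 with Gapdh. F2r came to -0.10 and Mmrn1 to -0.16 with beta-actin 3′ minus middle, Plek to -0.00 with averaged probe sets, Nbeal2 to 0.02 with Gapdh, and Thbs1 to 0.06 against WT replicates 1 and 2. Over the fits with 1 array left out, Vwf ran from -0.14 to 0.06, Thbs1 from -0.12 to 0.11, Fli1 from -0.11 to 0.02 and Runx1 from -0.02 to 0.03. Averaging probe sets lost Fermt3. A pseudocount was not run, since the values are log2.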
